A study of Mus musculus with 8 samples.

Results

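The markers by which fibroblastic reticular cells (FRC) are recognized, and by which their subsets and activated states are told apart, were followed as a set of 10 genes: Pdpn, Thy1, Il7, Cd34, Pdgfra, Pdgfrb, Vcam1, Icam1, Ly6a and Fap. They were taken by symbol, with no threshold on their values, from a table of 55367 genes, and all 10 symbols were found in it. RNA came from a single mouse FRC line made from lymph nodes of p53 ER/ER mice on the C57BL/6 strain, so every condition shares that genotype and no group stands for more than this line. For 4 days the cells were kept in low-serum RPMI of 1 of 4 kinds: RPMI conditioned by B16.F10 melanoma cells (tumor-conditioned medium, TCM), RPMI conditioned by FRCs themselves (control-conditioned medium, CCM), RPMI with 15 mmol/L lactic acid (LA), or RPMI with the matching amount of water (vehicle). Each condition had 2 libraries, which the study calls biological replicates. No source used here says whether they came from separate thaws or from parallel dishes of the line, so P values measure the spread between these libraries. The study's question was whether tumor-derived factors, and LA among them, move FRCs toward an activated fibroblast phenotype. It read that phenotype through Pdpn, Thy1 and Il7, measured by qRT-PCR and as protein apart from these libraries. Collagen I staining, fibrosis PCR arrays and matrix genes were its other readouts.

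FRCs build the reticular network of the lymph node T-cell zone, along which lymphocytes and dendritic cells migrate. Podoplanin (Pdpn) is a mucin-like glycoprotein that controls actomyosin contractility of these cells and is relaxed by the platelet and dendritic cell receptor CLEC-2, and interleukin 7 (Il7) is the survival cytokine that FRCs supply to naive T cells. Thy1 is a GPI-anchored glycoprotein of fibroblasts, Vcam1 and Icam1 are adhesion molecules bound by leukocyte integrins and raised by lymphotoxin and TNF receptor signaling during FRC maturation, and Pdgfra and Pdgfrb are the receptors for platelet-derived growth factors. Cd34 marks adventitial stromal cells of the node's medulla and vessel walls, Ly6a encodes Sca-1, a surface protein of mesenchymal progenitors that interferon raises, and Fap is a surface serine protease of activated fibroblasts and of FRCs.

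The members are scattered over several chromosomes. On GRCm38, with GENCODE M21 gene models, Pdpn lies at chr4:143267431-143299564 on the minus strand, Thy1 at chr9:44043384-44048579 on the plus strand, Il7 at chr3:7569994-7613760 on the minus strand and Cd34 at chr1:194938819-194961279 on the plus strand. Pdgfra lies at chr5:75152292-75198215 on the plus strand, Vcam1 at chr3:116109949-116129688 on the minus strand and Icam1 at chr9:21015985-21028817 on the plus strand. Ly6a lies at chr15:74994877-74998031 and Fap at chr2:62500943-62574075, both on the minus strand. Reads were counted over exons, and exons of 5 members overlap exons of a gene on the opposite strand: Il7 by 105 bases, Cd34 by 148, Vcam1 by 61, Icam1 by 511 and Pdgfra by 456 and 166 with a pair of genes. Whether strand was used in counting is not stated, so reads over those bases cannot be assigned to one gene or the other.

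RefSeq promoter sequence on GRCm38.p6 was matched for 4 of the 10 members, and 3 are shown because the results turn on them: Pdpn and Cd34 were higher with TCM, and Icam1, whose promoter is a classical target of NF-κB, was near the counting floor in every condition. Each run covers bases 250 to 11 before the RefSeq start, 240 bases read 5′ to 3′ on the gene's own strand, at chr4:143299575-143299814 on the minus strand for Pdpn, chr1:194938571-194938810 on the plus strand for Cd34 and chr9:21015690-21015929 on the plus strand for Icam1. Capitals mark matches to a κB-type motif, GGAAATTCC, and to a GAS-type motif, TTCNNNGAA, both searched on either strand.
Pdpn: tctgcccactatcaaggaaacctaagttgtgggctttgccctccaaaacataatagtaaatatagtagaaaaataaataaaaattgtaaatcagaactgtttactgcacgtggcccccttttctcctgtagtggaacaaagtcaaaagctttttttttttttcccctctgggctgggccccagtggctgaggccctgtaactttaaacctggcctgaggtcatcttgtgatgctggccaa
Cd34: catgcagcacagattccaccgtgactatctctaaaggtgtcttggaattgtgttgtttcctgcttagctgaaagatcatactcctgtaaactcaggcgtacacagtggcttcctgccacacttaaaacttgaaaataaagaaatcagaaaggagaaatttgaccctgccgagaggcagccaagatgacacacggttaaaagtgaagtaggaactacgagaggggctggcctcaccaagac
Icam1: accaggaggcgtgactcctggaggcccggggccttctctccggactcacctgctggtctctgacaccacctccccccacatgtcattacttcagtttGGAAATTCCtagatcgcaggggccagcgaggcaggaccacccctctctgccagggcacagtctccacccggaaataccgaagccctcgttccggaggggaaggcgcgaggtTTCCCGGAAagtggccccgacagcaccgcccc
Icam1 held the κB-type letters beginning 153 bases before the start, and 0.283% of 32851 RefSeq promoter windows of this length held them on either strand. It also held the GAS-type letters beginning 42 bases before the start, found in 6.77% of windows. Neither motif was in the Pdpn, Cd34 or Pdgfra window, and TATAAA, in 12.1% of windows, was in none of these 4. GGAAATTCC was the only κB-type string searched, so other forms of the motif in these windows were not looked for. The windows differed in base composition: the Pdpn window had 1 CpG and 42.9% GC, the Cd34 window 5 CpGs and 45.8% GC, and the Icam1 window 14 CpGs and 64.2% GC, where the median window had 5 CpGs. A match is a description of letters, and binding was not measured here.

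Counts on genes ranged from 8232889 to 14107964 per library, and the floor used here, 3 counts, corresponded to 0.211 to 0.354 CPM (a gene's counts divided by the library's total and scaled up to a common size). No molecular identifiers were used, so floors and counting intervals cover counting error only. Chi-square values for the libraries of a condition, divided by their degrees of freedom, were 3.28 to 7.32 for CCM, vehicle and LA and 19.8 for TCM, where counting alone gives 1, so the TCM libraries differed most from each other. The label of the cells was checked against marker lists. Ptprc, which encodes CD45, had 0 counts in all 8 libraries, and so did 6 of the other 7 hematopoietic markers. Pecam1, which encodes CD31, had 4 to 9 counts per library, Pdpn had at least 1023 and Vcam1 at least 1190. The T-zone chemokines Ccl19 and Ccl21a, which define the freshly isolated T-zone reticular cell, stood at the bottom of the table, with 1 count in 1 CCM library and 0 in all others for Ccl19 and 0 in all 8 for Ccl21a. The cells thus had many Pdpn and Vcam1 transcripts, few of Pecam1 and none counted of Ptprc, and both chemokines were at or near 0.

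Per kilobase of exon, the 10 members spanned almost the whole range of expressed genes. Averaged over the 4 conditions, Pdpn stood at 79.1 CPM per kb and Pdgfrb at 72.2, at percentiles 95.5 and 95.0 among 11964 tested genes with a known exon length. Vcam1 followed at 18.9 CPM per kb, percentile 78.5. Cd34 at 8.54, Ly6a at 6.04 and Pdgfra at 5.65 CPM per kb lay near the middle, at percentiles 58.1, 48.2 and 46.3. The remaining 4 were at the bottom, with Il7 at 0.232, Thy1 at 0.175, Fap at 0.167 and Icam1 at 0.0899 CPM per kb, all at or under percentile 2.07. Thy1 and Il7, both read as markers of FRC state in the study, were therefore among the members with the fewest reads per length.

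**Figure D1:**
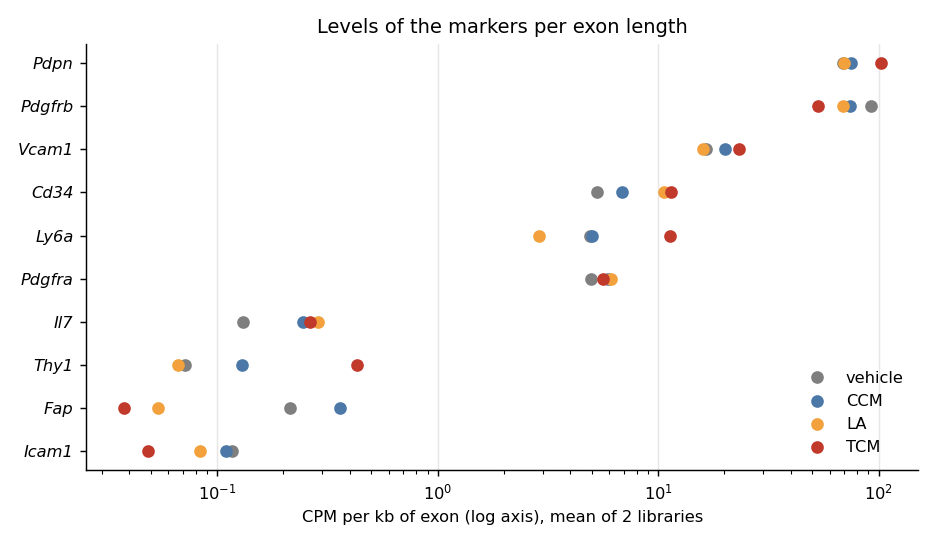
Level of each marker in CPM per kb of exon on a log axis, each point being the mean of the 2 libraries of a condition. Pdpn and Pdgfrb exceed 50 CPM per kb in every condition, and Il7, Thy1, Fap and Icam1 stay under 0.5 CPM per kb.

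Of the 10 members, 8 had at least 10 counts in at least 3 libraries and were tested with edgeR among 12137 genes, and Thy1 and Icam1 were not. Fap passed only through vehicle and CCM, where it was highest. A gene was called at a Benjamini-Hochberg adjusted P value under 0.05 and a log2 fold change (log2 FC) beyond 0.39. With TCM against CCM, Ly6a, Cd34 and Pdpn rose and Fap and Pdgfrb fell, so 3 of the 8 were higher and 2 lower, where 19.1% of all tested genes were called, 8.83% higher and 10.2% lower. With LA against vehicle, Cd34 alone was called, higher, where 2.55% of all genes were called, 1.31% higher and 1.24% lower. DESeq2 called 2 members with LA, adding Pdgfrb, which was lower, where it called 2.74% of all genes. When the TCM effect was tested against the LA effect, Ly6a was called, where 10.4% of all genes were called. None of the 8 was called between CCM and vehicle by edgeR or by DESeq2, where they called 1.3% and 1.95% of all genes. With 2 libraries against 2, the smallest 2-sided exact permutation P value is 0.333, so an exact test of a single member could not pass 0.05, and the calls rest on edgeR's spread shared across genes. In RNA of a whole culture, a change in the share of cells that express a gene and a change in RNA per cell cannot be told apart.

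**Figure D2:**
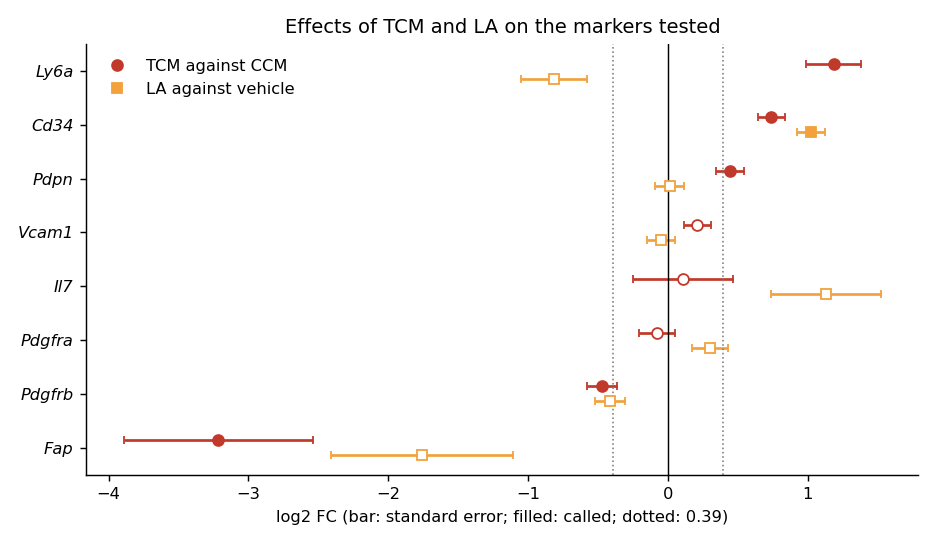
Log2 FC of the 8 tested markers for TCM against CCM (circles) and LA against vehicle (squares), with bars for the standard error, filled symbols for called genes and dotted lines at a log2 FC of 0.39 either way. Ly6a lies at 1.18 with TCM and −0.82 with LA, and Cd34 is filled in both comparisons.

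Other cell types were looked for beside these calls. The summed level of 7 melanoma markers was 2.29 to 2.63 CPM with TCM, inside the 1.81 to 3.03 CPM of the CCM libraries. Most of this sum was Pmel (10 and 10 counts with TCM) and Mitf (7 and 6), which were counted in every condition. Tyrp1 had 6 and 3 counts with TCM, Dct 1 and 1 and Sox10 0 and 1, and all 3 had 0 in the other 6 libraries. The sum thus does not follow these 3 genes. Summed endothelial markers (8 genes) were at 48.9 to 51.7 CPM with TCM and 63.5 to 64.7 CPM with CCM, and Tek, 1 of the 2 tested, was lower. Nearly all of this sum was Emcn, with 465 and 421 counts with TCM and 717 and 614 with CCM, while the defining markers Pecam1 and Cdh5 had at most 9 and 7 counts in any library. Summed epithelial markers (5 genes) were at 0.631 to 0.981 CPM with TCM and 2.19 to 3.15 CPM with CCM, with Cdh1, the 1 tested, lower. Mural cell markers (8 genes) were at 187 to 248 CPM with TCM and 213 to 253 CPM with CCM, and none of 5 tested was called. Most of this sum was Notch3, at 155 and 216 CPM with TCM and 215 and 179 CPM with CCM. The pericyte marker Rgs5 had 3 and 5 counts with TCM and 14 and 4 with CCM. With LA the endothelial sum, again mostly Emcn at 420 and 884 counts against 314 and 446, was 53.2 to 68.3 CPM against 39.7 to 48.6 CPM with vehicle, and the epithelial sum 1.77 to 2.25 CPM against 4.46 to 4.62 CPM. The part of these genes in the results was not tested. Hematopoietic markers (8 genes) summed to at most 2 counts in any library and to 0 with TCM and LA.

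Pdpn, the contractility regulator, was at 114 and 137 CPM with vehicle, 140 and 133 CPM with CCM, 123 and 130 CPM with LA and 187 and 185 CPM with TCM. Both TCM libraries stood above the other 6, and the LA libraries lay between those of vehicle. Mean Pdpn was 137 ± 4.44 CPM (SD, n = 2) with CCM and 186 ± 1.30 CPM with TCM, a 1.36-fold rise (log2 FC 0.44, SE 0.103, edgeR adjusted P value 0.0108). The call did not hold under each alternative: the adjusted P value was 0.0655 without CCM replicate 1 and 0.1005 without CCM replicate 2, and the log2 FC was 0.30, under the threshold, when library totals were used without TMM factors, a scaling that moved the median of all genes to −0.14. LA left Pdpn at 127 ± 4.61 CPM against 126 ± 16.4 CPM with vehicle (log2 FC 0.011, SE 0.103, edgeR adjusted P value 0.983). The TCM and LA effects on Pdpn differed by a log2 FC of 0.43 (SE 0.146), which was not called (edgeR adjusted P value 0.0893).

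The partners of podoplanin were set beside it. Of 9 listed genes 8 were tested, and the ninth, Clec1b, the gene of CLEC-2, had 0 counts in all libraries. With TCM 2 of the 8 were lower and none higher, so 25.0% were called, a share near the 19.1% of all tested genes. Their median log2 FC was −0.10, where the median of all tested genes was 0.000322. The hyaluronan receptor Cd44, which binds podoplanin, fell from 178 to 104 CPM (log2 FC −0.78, SE 0.126, edgeR adjusted P value 0.00138), and the tetraspanin Cd82 fell by 0.50 on the log2 scale, a call lost without CCM replicate 1 (edgeR adjusted P value 0.0595). The ERM linkers Msn, Ezr and Rdx were not called. With LA none of the 8 was called, with a median log2 FC of −0.0084 beside −0.000345 over all tested genes.

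Thy1, the GPI-anchored fibroblast glycoprotein, was near the counting floor, so its raw counts are given. There were 3 and 1 counts with vehicle, 7 and 2 with CCM, 1 and 4 with LA, and with TCM 8 and 16, and 4 of the 8 libraries had 3 counts or fewer. The TCM libraries had the highest counts, though 8 and 7 counts stood next to each other in TCM and CCM, and vehicle, LA and CCM overlapped. Summed over a condition, 9 counts with CCM equaled 0.403 CPM (95% exact Poisson interval 0.184 to 0.764) and 24 with TCM equaled 1.29 CPM (0.823 to 1.91). Their ratio was 3.19, with a 95% counting interval of 1.43 to 7.80, and it was 6.73 without CCM replicate 1 and 2.09 without TCM replicate 2. When genes of any count were tested, edgeR gave Thy1 a log2 FC of 1.66 (SE 0.629) with an adjusted P value of 0.0600, which was not a call. LA and vehicle had 5 and 4 summed counts, a ratio of 1.09 with a counting interval of 0.235 to 5.50 (0.584 to 2.39 with 1 library left out), so neither a rise nor a fall of several-fold was detectable at this depth.

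Il7, the T-cell survival cytokine, had 5 and 10 counts with vehicle, 15 and 16 with CCM, 12 and 26 with LA, and with TCM 14 and 14. Vehicle had the fewest, and the other 3 conditions overlapped. In CPM these were 0.558 and 0.924 with vehicle, 1.26 and 1.53 with CCM, 1.42 and 1.83 with LA, and with TCM 1.47 and 1.53. TCM and CCM differed by a log2 FC of 0.11 (SE 0.358, edgeR adjusted P value 0.861). Both LA libraries were above both vehicle libraries, and the 38 summed counts with LA against 15 with vehicle gave a ratio of 2.21 with a counting interval of 1.19 to 4.33. This was not called (log2 FC 1.13, SE 0.393, edgeR adjusted P value 0.199). CCM was also above vehicle, by a log2 FC of 0.87 (SE 0.408, edgeR adjusted P value 0.409), so vehicle set the low end of every Il7 contrast it entered. Of 4 related genes, Il7r had 0 counts throughout, and Crlf2, the receptor chain for the Il7-like cytokine Tslp, was lower with TCM (log2 FC −0.47, SE 0.142, edgeR adjusted P value 0.0378), the 1 call of 2 tested. That call was lost in DESeq2 (adjusted P value 0.138), with only the libraries compared (0.0717), without vehicle replicate 2 (0.0520) and without any one of the 4 libraries compared (0.0626 to 0.212). The list's median log2 FC was 0.015 with TCM and −0.094 with LA, where none was called.

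**Figure D3:**
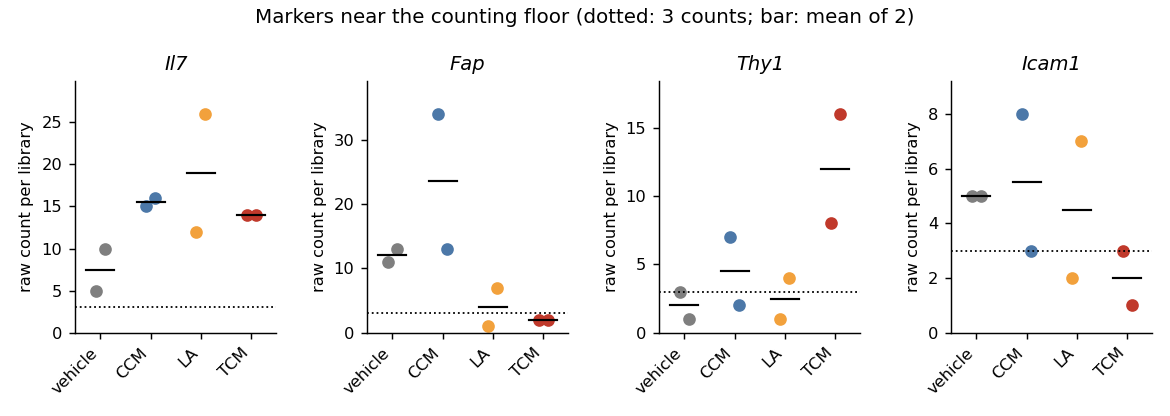
Raw counts per library of Il7, Fap, Thy1 and Icam1, not scaled for depth, with a bar at the mean of the 2 libraries and a dotted line at the floor of 3 counts. Thy1 is highest in the TCM libraries at 8 and 16 counts, and Fap has 2 counts in each of them.

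Vcam1, the ligand of the integrin α4β1, was well expressed at 136 and 157 CPM with vehicle, 183 and 173 CPM with CCM, 141 and 142 CPM with LA and 215 and 198 CPM with TCM. TCM libraries were above CCM libraries, CCM above vehicle, and LA inside the range of vehicle. The rise with TCM was 1.16-fold and was not called (log2 FC 0.21, SE 0.0984, edgeR adjusted P value 0.156). LA changed Vcam1 by a log2 FC of −0.05 (SE 0.0993, edgeR adjusted P value 0.895). CCM exceeded vehicle by 0.29 (SE 0.0989, edgeR adjusted P value 0.216), also not called.

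Icam1, the ligand of LFA-1 whose promoter letters are given above, had 5 and 5 counts with vehicle, 8 and 3 with CCM, 2 and 7 with LA, and with TCM 3 and 1. All neighboring conditions overlapped, and no library reached 10 counts. Summed counts were 10, 11, 9 and 4, and the ratio of TCM to CCM was 0.435 with a counting interval of 0.101 to 1.47, which includes no difference. The ratio of LA to vehicle was 0.786, with an interval of 0.283 to 2.15. Leaving out 1 library moved the TCM ratio between 0.221 and 0.748 and the LA ratio between 0.468 and 0.976. A difference in Icam1 was not detectable at this depth, and up to 511 of its exonic bases are shared with an antisense gene.

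Integrins that bind Vcam1, Icam1 or Thy1 and the receptors upstream of both adhesion genes were examined as lists. Of 9 integrin genes 6 were tested. With TCM 2 were lower, Itgb3 (log2 FC −1.16, SE 0.206, edgeR adjusted P value 0.00251) and Itgb2 (−1.20), and with LA Itgb5 was lower (−0.45). These were 33.3% and 16.7% of the 6, where 19.1% and 2.55% of all tested genes were called. Itgb2 was not called by DESeq2 (adjusted P value 0.191), with only the libraries compared (0.0939) or without any single library other than CCM replicate 2 (0.0542 to 0.313), and Itgb5 was lost without any one of the vehicle, LA and CCM libraries (edgeR adjusted P values 0.0748 to 0.252). The list's medians were −0.06 and 0.05. Itgb3 and Itgb5 encode partners of αv, through which Thy1 is bound. Itga4 and Itgb1, the chains of the Vcam1 receptor, were not called in either comparison. In the lymphotoxin and TNF receptor pathway 11 of 15 genes were tested, and 2 of them, 18.2%, were called with TCM, a share near the 19.1% of all genes. The ligand genes Lta and Tnf had 0 counts in all libraries. TNF receptor 2 (Tnfrsf1b) was higher with TCM (log2 FC 0.57, SE 0.109, edgeR adjusted P value 0.00407) and Relb, a subunit of non-canonical NF-κB, was lower (−0.62, SE 0.133, edgeR adjusted P value 0.00724, and 0.0866 without CCM replicate 1). The lymphotoxin β receptor itself, Ltbr, was at 125 ± 9.93 CPM (SD, n = 2) with CCM and 140 ± 10.8 CPM with TCM and was not called. The list's median log2 FC was −0.06 with TCM and −0.08 with LA, and with LA none of the 11 was called.

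Of the PDGF receptors, Pdgfrb fell with TCM and Pdgfra was not called in either comparison. Pdgfra was at 46.5 and 53.1 CPM with vehicle, 61.5 and 57.0 CPM with CCM, 55.3 and 67.1 CPM with LA and 51.7 and 60.7 CPM with TCM. Neighboring conditions overlapped in the order of its levels, but both LA and both CCM libraries were above both vehicle libraries. TCM gave a log2 FC of −0.08 (SE 0.129, edgeR adjusted P value 0.719) and LA 0.30 (SE 0.130, edgeR adjusted P value 0.319). CCM against vehicle gave 0.25 (SE 0.130, edgeR adjusted P value 0.479). Pdgfrb, the receptor of pericytes and FRCs, was at 508 and 503 CPM with vehicle, 419 and 392.4 CPM with CCM, 389 and 369 CPM with LA and 267 and 317 CPM with TCM. No conditions overlapped, with TCM lowest and vehicle highest, and the raw counts behind these levels were 2538 to 5445. With TCM Pdgfrb fell from 406 ± 18.8 to 292 ± 35.6 CPM (SD, n = 2), 1.39-fold (log2 FC −0.47, SE 0.107, edgeR adjusted P value 0.00926). This call was lost when only the TCM and CCM libraries were fitted (adjusted P value 0.0526), without CCM replicate 1 (0.102) and, with a log2 FC of −0.35, without TCM replicate 1. LA lowered the mean by a similar amount, from 506 ± 3.69 to 379 ± 14.1 CPM (log2 FC −0.42, SE 0.106), which missed the threshold in edgeR (adjusted P value 0.0724) and passed it in DESeq2 (adjusted P value 0.0235). The effect of TCM minus that of LA was −0.06 (SE 0.150, edgeR adjusted P value 0.868), with an uncertainty too wide to show that they were equal. CCM was also lower than vehicle (log2 FC −0.32, SE 0.106), not called at an edgeR adjusted P value of 0.196.

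Among the ligands of these receptors, 3 of 4 were tested. All 3 were called with TCM and 33.3% with LA, where 19.1% and 2.55% of all tested genes were. Pdgfa, which binds the α receptor, rose from 49.2 to 75.1 CPM (log2 FC 0.61, SE 0.152, edgeR adjusted P value 0.0154) and Pdgfd, which binds the β receptor, rose from 5.87 to 10.1 CPM (log2 FC 0.78, SE 0.181, edgeR adjusted P value 0.0110). Pdgfc fell with TCM (log2 FC −0.99, SE 0.121) and with LA (−1.004, SE 0.117, edgeR adjusted P value 0.00146), the 1 ligand called in both. The Pdgfa and Pdgfd calls were lost without CCM replicate 1 (edgeR adjusted P values 0.116 and 0.0976) or CCM replicate 2 (0.0642 and 0.0649), and that of Pdgfa also without TCM replicate 1 (0.0507). Pdgfb, the classical β receptor ligand, had at most 1 count in any library. Medians of the 3 were 0.61 with TCM and −0.57 with LA.

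Cd34 was called in both main comparisons. It was at 39.7 and 37.0 CPM with vehicle, 49.9 and 49.6 CPM with CCM, 79.4 and 76.3 CPM with LA and 81.5 and 84.6 CPM with TCM, from 356 to 1083 raw counts. The libraries of the 4 conditions did not overlap, and those of LA and TCM lay well above both controls. LA doubled the level, from 38.3 ± 1.95 to 77.8 ± 2.19 CPM (SD, n = 2), a 2.03-fold rise (log2 FC 1.02, SE 0.0974, edgeR adjusted P value 0.000498). TCM raised it from 49.8 ± 0.216 to 83.0 ± 2.21 CPM, 1.67-fold (log2 FC 0.74, SE 0.0953, edgeR adjusted P value 0.000321). CCM stood above vehicle (log2 FC 0.38, SE 0.0986), which was not called at an edgeR adjusted P value of 0.0918. The difference between the effects, −0.28 (SE 0.136), was not called (edgeR adjusted P value 0.228). Both Cd34 calls were kept without any single library.

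**Figure D4:**
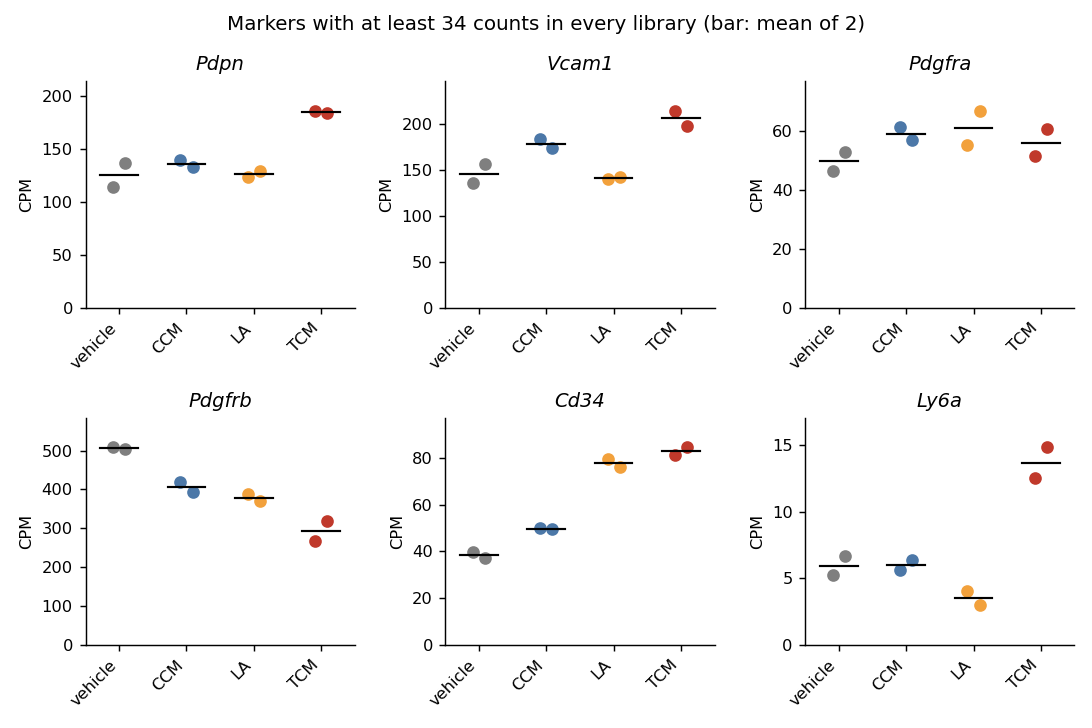
CPM of the 6 better expressed markers in each library by condition, with a bar at the mean of the 2 libraries and each axis starting at 0. Cd34 is near 80 CPM with LA and TCM and under 50 CPM in the controls, Pdgfrb is highest with vehicle, and Ly6a is highest with TCM and lowest with LA.

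Genes of CD34+ adventitial stromal cells were set beside Cd34, and most of those tested fell with TCM. Of 10 listed genes 7 were tested. With TCM 1 was higher and 5 were lower, with a median log2 FC of −2.66, and with LA none was higher and 3 were lower, with a median of −0.84. The shares called were 85.7% with TCM and 42.9% with LA, beside 19.1% and 2.55% of all tested genes. Pi16, a peptidase inhibitor of adventitial fibroblasts, had 106 and 83 counts with CCM and 8 and 5 with TCM. It thus passed the filter through vehicle, CCM and LA libraries only. Its level was 8.43 CPM with CCM and 0.694 CPM with TCM (log2 FC −3.58, SE 0.297, edgeR adjusted P value 2.61e-05). With LA it fell from 12.7 to 3.48 CPM (−1.82, SE 0.202, edgeR adjusted P value 0.00112). The scavenger receptor Ackr3 fell by 2.99 with TCM and by 1.86 with LA on the log2 scale. The alarmin Il33 fell by 2.66 and by 1.53. Cd248, the endosialin gene of perivascular stroma, was called lower with TCM (log2 FC −1.14), and Anxa3, an annexin, was called higher (0.67), as Cd34 was. The matrix protein gene Dpt, also called lower and named here outside the rule after its values were seen, had 20 and 15 counts with CCM and, under the floor, 2 and 1 with TCM. Like Pi16, Dpt passed the filter only through libraries of the other conditions, and both genes are in the shares and medians above. Cd34 thus rose in both treatments in which Pi16, Ackr3 and Il33 fell.

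**Figure D5:**
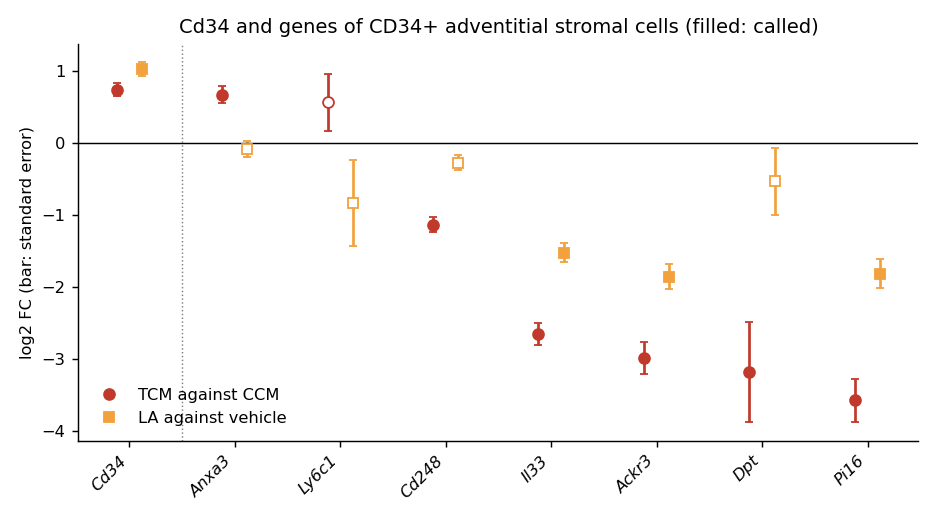
Log2 FC of Cd34 (left of the dotted line) and of the 7 tested genes of CD34+ adventitial stromal cells for TCM against CCM (circles) and LA against vehicle (squares), with bars for the standard error and filled symbols for called genes. Cd34 is above 0 in both, and Il33, Ackr3 and Pi16 are below 0 in both. The TCM level rests on 2 and 1 counts for Dpt and on 8 and 5 for Pi16.

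Ly6a was highest with TCM and lowest with LA. It had 47 and 72 counts with vehicle, 67 and 67 with CCM, 34 and 42 with LA, and with TCM 119 and 136, which equaled 5.24 and 6.65, 5.64 and 6.40, 4.02 and 2.96, and 12.5 and 14.8 CPM. Both TCM libraries were above and both LA libraries below all 4 control libraries, and the controls overlapped each other. With TCM Ly6a rose from 6.02 ± 0.532 to 13.7 ± 1.63 CPM (SD, n = 2), 2.27-fold (log2 FC 1.18, SE 0.197, edgeR adjusted P value 0.00167). With LA the level was 3.49 ± 0.748 CPM against 5.95 ± 0.996 CPM (log2 FC −0.82, SE 0.238), not called at an edgeR adjusted P value of 0.110, and called at 0.0462 when no filter on low counts was used. The effects differed by a log2 FC of 2.00 (SE 0.309, edgeR adjusted P value 0.00182), the 1 called difference among the 8 tested members. Its TCM call and its difference were kept without any single library. Ly6a belongs to a cluster of related genes, and how the counting treated any reads shared between them is not stated. Of 7 neighbors in that family 2 were tested and 4 had 0 counts in all libraries. Ly6e, another gene of the family that interferon raises, had 66.1 CPM with CCM and rose to 162 CPM with TCM (log2 FC 1.29, SE 0.116, edgeR adjusted P value 3.73e-05). Ly6c1 was not called, and neither was called with LA. The family's median log2 FC was 0.93 with TCM and −0.24 with LA.

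Fap, the fibroblast activation protease, was near the floor and had 11 and 13 counts with vehicle, 34 and 13 with CCM, 1 and 7 with LA, and with TCM 2 and 2. Every LA and TCM library was below every control library, and 1 CCM library, with 34 counts, stood above the other 7. The 4 summed counts with TCM against 47 with CCM gave a level 9.82-fold lower, with a counting interval of 3.59 to 37.5, and the 8 with LA against 24 with vehicle a level 3.44-fold lower, with an interval of 1.49 to 8.85. With TCM the fall was called (log2 FC −3.22, SE 0.674, edgeR adjusted P value 0.0064), but not without CCM replicate 1, the library of 34 counts (log2 FC −2.47, adjusted P value 0.0625). With LA it was not called (log2 FC −1.76, SE 0.652, edgeR adjusted P value 0.230), and leaving out 1 library moved the log2 FC between −3.23 and −1.28. Because Fap entered the test through the control libraries, its call says little beyond these counts.

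Markers of activated fibroblasts were counted beside Fap. Of 9 listed genes 8 were tested, and with TCM 1 was higher and 3 were lower, with a median log2 FC of −0.05. Fibronectin (Fn1) rose by 0.71 on the log2 scale, and the membrane protease Mmp14 (−0.85), periostin (Postn, −0.71) and tenascin C (Tnc, −0.65) fell. The Postn and Tnc calls were lost without any one of the 4 libraries compared (edgeR adjusted P values 0.0570 to 0.251 and 0.0745 to 0.394). The Fn1 call was lost without either CCM library (0.0890 and 0.170), without TCM replicate 2 (0.0799), with only the libraries compared (0.0923) and without TMM factors (0.0507). The smooth muscle actin gene Acta2 was not called (log2 FC 0.37, SE 0.133, edgeR adjusted P value 0.0738). With LA none of the 8 was called, with a median of 0.13, where 2.55% of all tested genes were called.

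The remaining stromal lists covered T-zone, marginal and perivascular genes. Of 10 T-zone reticular cell factors 5 were tested, and with TCM 2 were higher, the chemokine Cxcl12 (log2 FC 0.64, SE 0.108, edgeR adjusted P value 0.0019) and the BMP antagonist Grem1 (2.51, SE 0.351, edgeR adjusted P value 0.000551). Among 7 genes of marginal reticular and follicular dendritic cells 4 were tested. Clu (log2 FC 1.87) and Mfge8 (0.71) rose with TCM and Enpp2, the autotaxin gene, fell (−1.83), a call lost without CCM replicate 1 (log2 FC −1.27, edgeR adjusted P value 0.0784). Called with TCM were thus 40.0% of the 5 T-zone and 75.0% of the 4 marginal and follicular genes, beside 19.1% of all tested genes. None of 8 tested perivascular and mural genes was called with TCM, and with LA none of these 3 lists had a call. Median log2 FC values with TCM were 0.21, 0.13 and −0.12, and with LA 0.03, −0.12 and 0.11. In the list of 10 FRC markers used to check the cells, 8 were tested, and with TCM Pdpn was higher and Pdgfrb and Col3a1 lower (median 0.19), while with LA Col3a1 was lower (median −0.02). That was 37.5% and 12.5% called, where 19.1% and 2.55% of all tested genes were.

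The genes whose profiles over the 8 libraries were most like those of Pdpn, Il7 and Cd34 were sought among 9437 genes with a mean log2 CPM of at least 3. For Pdpn these were Smoc1, a secreted calcium-binding protein (Pearson r 0.988), Sh3glb1 (0.983) and Susd2 (0.983). For Cd34 they were Has2, a hyaluronan synthase (0.992), Tmem231 (0.975) and Acat2, a thiolase of acetyl-CoA metabolism (0.969). For Il7, whose profile rests on 5 to 26 counts, the highest were Smad6 (0.940), Lrch2 (0.939) and Usp28 (0.938). Points share libraries and conditions, so these values describe likeness of profile over 4 conditions and were given no P value.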

How the data were processed

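RNA-seq of 8 libraries of an FRC line was analysed, 2 per condition, with conditions and replicate numbers taken from the labels. From directional poly(A) libraries read on an Illumina instrument, the authors aligned reads to GRCm38 with STAR 2.7.0a, counted them with featureCounts (Subread 2.0.1) and deposited raw counts per gene. Their own tests used DESeq2 1.32.0. The other deposited table, named for normalized values, held the same raw counts for 12137 genes (100% of values equal) and was used for that check only. Of the columns, 0 were left unused.

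The 12137 of 55367 genes reaching 10 counts in 3 or more libraries were tested with edgeR 4.0.16 in R 4.3.3 (quasi-likelihood, TMM factors computed on tested genes, all 8 libraries in the fit, a mean per condition, Benjamini-Hochberg adjustment). They were called where the adjusted P value was below 0.05 with a log2 FC beyond 0.39. That is the fold limit in the study's methods for the gene lists of its enrichment analyses. Its volcano plots and its reported enrichment for LA against vehicle use 0.68. CPM use TMM-scaled library totals, with SD over 2 libraries. The script was tested on simulated data. For members near the floor (3 counts per library), counts of a condition were summed, with 95% exact Poisson intervals for levels and exact conditional binomial intervals for ratios. Exon lengths come from GENCODE M21 and promoters from RefSeq on GRCm38.p6. The named genes were the 10 members, at most 5 called genes of each context list by smallest P value, and the cell type markers, plus the 3 most similar genes of Pdpn, Il7 and Cd34. Members, lists and rule were chosen with earlier results of these data known. Alternatives were DESeq2 1.42.0 and its size factors, scaling without TMM factors, no or a stricter filter, only the libraries compared, other fold thresholds, replicate blocks and leaving out each library.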

Additional observations from a re-analysis of the deposited data

Results flagged for a closer look

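A difference between the TCM effect and the LA effect, tested in the same edgeR fit and adjusted over all 12137 genes, was called for 1 of the 8 tested members, Ly6a, and for 18 of the 68 other genes of the lists that were tested, 26.5%, where 10.4% of all genes were called. The lists were chosen with earlier results known. For Ly6a the difference was 2.00 on the log2 scale (SE 0.309, edgeR adjusted P value 0.00182), with both TCM libraries above CCM and both LA libraries below vehicle. Its family neighbor Ly6e differed by 0.93. Among T-zone, marginal and follicular genes, the difference was 2.48 for Grem1, 1.73 for Clu and 1.09 for Mfge8. Among genes of CD34+ adventitial stromal cells it was −1.13 for Il33, −1.12 for Ackr3, −1.76 for Pi16, −0.86 for Cd248 and 0.75 for Anxa3. Il33, Ackr3 and Pi16 were called lower in both comparisons, so here the fall was larger with TCM. Among activation markers it was −0.76 for Mmp14 and −1.27 for Postn, and in the lymphotoxin and TNF receptor pathway 0.80 for Tnfrsf1b and −0.65 for Relb. Among partners and ligands of the members it was −0.79 for Cd44, 1.18 for Pdgfa, −1.52 for Itgb3 and 0.73 for Itgb5. For Emcn, of the endothelial list, it was −0.89. The 2 effects use different controls, and the cause of these differences was not tested.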

How the results depend on the processing

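Of the 5 members called with TCM, 3 remained with a log2 FC beyond 0.68, Cd34, Fap and Ly6a (1331 of all 12137 genes). Beyond 1, 2 remained, Fap and Ly6a (6.26% of all). Fap had 2 and 2 counts with TCM and passed the filter only through vehicle and CCM libraries, so its place here says little. The calls of Pdpn, Pdgfrb and Fap were lost without some single libraries, as given above. With LA, 2 members were called by DESeq2 (2.74% of all genes), with only the libraries compared (3.74%) and with crossed replicate numbers (4.91%), and 3 without a filter on low counts (2.82%), against 1, and leaving out 1 library gave 1 to 2, with 2 (Pdgfrb added) without either TCM library (5.08% each). For the difference between the effects, 2 were called with crossed numbers (1938 genes), and leaving out 1 library gave 1 to 3, the highest (Pdpn, Pdgfra and Ly6a) without TCM replicate 2 (20.9%). Between CCM and vehicle the count was 0 under every alternative that kept both libraries of each condition compared. These alternatives called 0.157% to 5.59% of all genes, so 0 of so few members does not show that the controls were alike. Signs turned only for values not called. Il7 with TCM was −0.029 without TMM factors. Ly6a in CCM against vehicle was −0.0062 with DESeq2 size factors, −0.0015 with DESeq2, −0.015 with no filter and −0.0056 with only the libraries compared. Leaving out 1 library, Il7 with TCM ranged from −0.026 to 0.24, Pdgfra with TCM from −0.20 to 0.035, Pdpn with LA from −0.11 to 0.15, Vcam1 with LA from −0.15 to 0.058, the difference for Pdgfrb from −0.19 to 0.063 and for Fap from −1.94 to 0.017, and CCM against vehicle from −0.0071 to 0.25 for Pdpn and −0.15 to 0.19 for Ly6a. Where these values turned, the cause was not tested.

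No source says that equal replicate numbers mark a shared batch, and they were not treated as pairs. Correlations of deviations of same-numbered libraries were positive between vehicle and LA (0.353), vehicle and TCM (0.112), and LA and TCM (0.106), and negative between CCM and each of TCM (−0.242), LA (−0.0813) and vehicle (−0.0406). With the number as a replicate block, 5, 1, 1 and 0 members were called in the 4 comparisons, as without it, and 2367, 356, 1316 and 193 genes of all. With the CCM numbers crossed, an alternative chosen after seeing the data, 2675, 596, 1938 and 457 genes were called, Pdgfrb with LA (adjusted P value 0.0187) and the difference for Pdpn (0.0302) among them. Depth limits Thy1, Icam1, Fap and Il7, for which a difference inside the counting intervals could not be seen.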

Other observations

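Some values of stromal genes stood out outside the comparisons, and what lies behind them was not tested. Cxcl13, a chemokine of marginal reticular and follicular dendritic cells, had 43 counts in CCM replicate 1 and 0 in the other 7 libraries, and the same library had the highest Fap count of the series, 34. Col1a2, one chain of type I collagen, had 57 to 178 counts per library, where Col1a1, the other chain, had 131525 to 244327. Both were chosen after their values were seen.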
